A study of Homo sapiens with 6 samples.

Results

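The genes of 10 proteins that build nuclear speckles or sit at their edge were followed in HCT116, a human colorectal carcinoma cell line, by RNA sequencing. They are SON, SRRM2, SRRM1, MFAP1, PNN, RNPS1, ACIN1, BCLAF1, THRAP3 and NKTR, and they were picked by name from 58780 annotated genes in the deposited tables. All 10 were among the 19725 genes with enough reads to test. The 2 groups were cells given auxin for 16 h and cells given DMSO, the solvent, with 3 libraries each that the labels number as biological replicates 1 to 3. Auxin is a plant hormone that makes engineered cells break down any protein fused to a matching degron. Neither the tagged protein nor a promoter or clone is named in the labels, and no time is given for DMSO. RNA levels cannot show whether a protein was lost, so the loss of a target was not checked here.

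Nuclear speckles are bodies of the nucleus, rich in splicing factors, that lie next to many active genes. SON and SRRM2 are very large, largely disordered proteins on which a speckle is assembled. The others bind spliced or still unspliced mRNA at the speckle's periphery, through the spliceosome (SRRM1, MFAP1), the exon junction complex that marks spliced joints (RNPS1, ACIN1, PNN), or related particles (BCLAF1, THRAP3). Most carry stretches of arginine and serine repeats, the signature of splicing regulators. Many genes of splicing regulators make a second kind of mRNA with an early stop codon, and nonsense-mediated decay, a surveillance pathway, can degrade such mRNAs.

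Of the 10 genes, 3 rose after auxin (SRRM2, RNPS1, THRAP3), 4 fell (PNN, ACIN1, BCLAF1, NKTR) and 3 did not pass the test (SON, SRRM1, MFAP1). The test was edgeR's quasi-likelihood test with a Benjamini-Hochberg adjusted p under 0.05. Of all genes tested, 25.4% were called higher and 26.9% lower by the same rule, so the members' counts of 3 and 4 lie near the background. With the replicate number as a block, all 10 were called, 5 higher and 5 lower, against 35.5% and 34.4% of all genes. The median log2 fold change was -0.01 over the members and 0.02 over all genes tested. In NKTR, BCLAF1 and ACIN1, the main coding transcript, which skips an exon whose inclusion leads to an early stop codon, fell. The summed levels of transcripts that hold that exon overlapped between the groups, and were lower in all 3 same-numbered pairs in NKTR and BCLAF1.

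Those exons are shown first. The 3 genes are the members with a transcript of the annotation's class nonsense_mediated_decay at a mean of at least 5% of the gene's reads in either group. That transcript was set against the gene's most abundant coding transcript, and its first exon missing from the latter was read out of the GENCODE release 29 transcripts on GRCh38. The rule was written after the transcript values were seen, and BCLAF1 met it only through the auxin group, so the values below describe these genes and are not independent of the choice. Each sequence starts with the last 15 bases of the shared exon before it and ends at the annotated stop codon, in capitals. The line before it gives the same 15 bases joined to the first 15 of the next exon of the coding transcript.
NKTR-201, exon skipped: gtggatattttaaagatgaaaactttattc
NKTR-202, exon held: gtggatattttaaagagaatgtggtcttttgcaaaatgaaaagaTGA
BCLAF1-205, exon skipped: ttacaaagatgacagtaaacataaaagaga
BCLAF1-206, exon held: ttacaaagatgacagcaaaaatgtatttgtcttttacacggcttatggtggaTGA
ACIN1-223, exon skipped: gaggagaagaaagagagctcgctgcccaaa
ACIN1-206, exon held: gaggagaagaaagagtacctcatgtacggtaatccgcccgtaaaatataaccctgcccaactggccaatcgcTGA

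The NKTR exon, chr3:42620016-42620043 on the plus strand, has 28 bases, which is not a multiple of 3. Reading on from it shifts the frame, and a TGA follows at chr3:42621430-42621432, 1 base into the next exon. The annotated reading frame of NKTR-202 stops after 105 codons, against 1462 in NKTR-201. The BCLAF1 exon, chr6:136269141-136269303 on the minus strand, has 163 bases and its TGA ends 40 bases in, after 752 codons against 871 in BCLAF1-205. The ACIN1 exon, chr14:23067314-23068671 on the minus strand, has 1358 bases and its TGA ends 60 bases in. ACIN1-206 has no annotated start codon, so its codons were not counted, and ACIN1-223 has 1283. Between the stop codon and the last exon junction lie 4039 bases in NKTR-202, 661 in BCLAF1-206 and 2522 in ACIN1-206.

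NKTR encodes a protein with a cyclophilin domain, a fold that acts on proline bonds, and a long arginine-serine tail. Levels of transcripts are given as TPM, an abundance per transcript length that sums to the same total in each library. NKTR-201, the full-length coding transcript, was at 7.21, 4.82 and 5.39 TPM in DMSO replicates 1 to 3 and at 1.94, 1.57 and 1.92 TPM after auxin. All auxin libraries lay below all DMSO libraries, and the level of NKTR-201 fell 2.82-fold (log2 fold change -1.5, SE 0.11, edgeR adjusted p 0.00069 over all transcripts). The transcripts that hold the 28-base exon summed to 3.44, 1.74 and 1.41 TPM in DMSO and to 2.82, 1.17 and 1.07 TPM after auxin. These ranges overlap, although each auxin library was below the DMSO library of its number. NKTR-202 itself was at 0.73 ± 0.44 TPM in DMSO and 0.81 ± 0.57 TPM after auxin (SD, n = 3 each). The exon is also held by NKTR-215 and NKTR-211, which the annotation calls retained_intron. They were at 0.717 ± 0.248 and 0.427 ± 0.235 TPM in DMSO. After auxin they were at 0.377 ± 0.176 and 0.297 ± 0.169 TPM, so the exon-holding sum is not all of the decay class.

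The exon-holding part of NKTR therefore made up 32.3%, 26.5% and 20.7% of the TPM of transcripts that span the exon in DMSO, and 59.2%, 42.7% and 35.8% after auxin. The groups did not overlap, and the exact two-sided permutation p was 0.1, the smallest that 3 libraries against 3 allow, or 0.133 adjusted over the 12 such values computed for the 3 genes. As a share of the gene's estimated reads, NKTR-202 went from 11.6%, 9.1% and 5.37% to 31.2%, 19.1% and 14.3%. NKTR-201 went from 68.6%, 72.9% and 79.9% to 41.4%, 55.7% and 64.0%. Replicate 1, the deepest library of each group, had the lowest NKTR-201 share in both. By limma on the log2 odds of a transcript within its gene, neither shift passed (adjusted p 0.0856 for NKTR-201 and 0.0882 for NKTR-202). With the replicate block both did, with limma adjusted p of 0.0115 and 0.00963.

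BCLAF1 and THRAP3 are related arginine-serine-rich proteins of mRNA particles, and BCLAF1 has roles in splicing after DNA damage. BCLAF1-205, the main coding transcript, was at 61.2, 45.3 and 48.0 TPM in DMSO and 24.7, 21.0 and 21.1 TPM after auxin. It fell 2.05-fold with no overlap (log2 fold change -1.03, SE 0.09, edgeR adjusted p 0.0011). Transcripts that span but lack the exon summed to 73.8, 58.5 and 65.6 TPM in DMSO and 30.5, 31.5 and 30.4 TPM after auxin. Those that hold it summed to 28.1, 23.6 and 29.4 TPM, and 18.2, 19.4 and 25.0 TPM after auxin, so one auxin library lay within the DMSO range, although each auxin library was below the DMSO library of its number. The exon-holding share was 27.6%, 28.8% and 30.9% in DMSO and 37.3%, 38.1% and 45.1% after auxin, without overlap. BCLAF1 was chosen through its auxin value, so this separation is not a test.

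Most of the exon-holding RNA of BCLAF1 was not in the decay class. BCLAF1-223, which the annotation calls protein_coding, shares the exon and ends at the same stop codon, and was at 24.6 ± 3.1 TPM in DMSO and 17.3 ± 3.9 TPM after auxin (SD, n = 3 each). BCLAF1-206 was at 0.03, 1.5 and 0.89 TPM in DMSO and 1.90, 2.23 and 1.91 TPM after auxin. Its groups did not overlap, but BCLAF1 was chosen through the auxin value of this transcript. Its level did not pass the test (log2 fold change 1.33, SE 1.22, edgeR adjusted p 0.525). DMSO replicate 1 was close to 0.

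ACIN1, or acinus, joins RNPS1 and SAP18 in the ASAP complex, which binds the exon junction complex. ACIN1-223, its main coding transcript, was at 13.2, 9.02 and 9.17 TPM in DMSO and 6.90, 4.45 and 4.73 TPM after auxin. It fell 1.74-fold without overlap (log2 fold change -0.80, SE 0.09, edgeR adjusted p 0.00219). ACIN1 transcripts that span but lack the exon summed to 25.7, 16.3 and 18.9 TPM in DMSO and 12.6, 7.73 and 8.57 TPM after auxin. Those with the exon summed to 8.82, 4.73 and 3.91 TPM, and to 9.51, 4.15 and 4.66 TPM after auxin, and the ranges overlapped. ACIN1-206 itself was at 3.47 ± 1.96 TPM in DMSO and 3.68 ± 2.24 TPM after auxin (edgeR adjusted p 0.675). The exon is also held by ACIN1-208, which the annotation calls processed_transcript, so the sum is not all of the decay class. ACIN1-208 was at 2.04 ± 0.726 TPM in DMSO and 2.04 ± 0.681 TPM after auxin. The exon-holding share was 25.5%, 22.5% and 17.2% in DMSO and 43.0%, 34.9% and 35.2% after auxin (exact permutation p 0.1, or 0.133 adjusted). As shares of the gene's reads, neither ACIN1-206 nor ACIN1-223 passed by limma (adjusted p 0.121 and 0.131). With the replicate block both did (limma adjusted p 0.0102 and 0.0473).

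**Figure D1:**
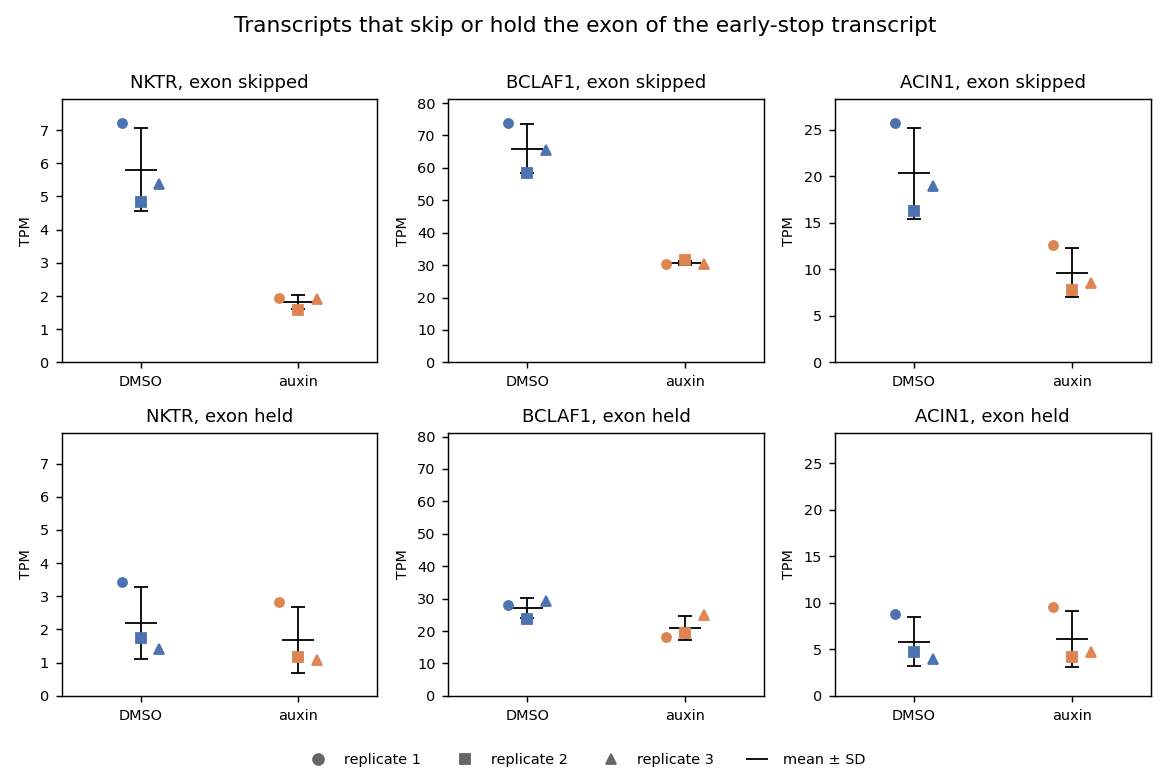
TPM of transcripts that span but skip (top) or hold (bottom) the exon that leads to an early stop in NKTR, BCLAF1 and ACIN1, in each DMSO (blue) and auxin (orange) library, with the mean and SD of 3 libraries. In the top row no auxin library reaches a DMSO library, and in the bottom row the groups overlap in all 3 genes; each column shares 1 axis range.

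These shares rest on how the authors' software divided reads among transcripts. The deposited posterior SD of that division was at most 2.54% of the gene's reads for NKTR-201, 1.38% for ACIN1-223 and 0.67% for BCLAF1-205. Taken over estimated reads instead of TPM, the exon-holding share went from 19.6% ± 5.59 to 39.2% ± 12.7 in NKTR (SD, n = 3 each). It went from 16.4% ± 1.46 to 26.7% ± 3.17 in BCLAF1 and from 14.2% ± 3.81 to 25.5% ± 5.79 in ACIN1. The exact permutation p was 0.1 for NKTR and for ACIN1. Replicate 1 had the highest share in both groups for ACIN1 and NKTR.

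A wider measure counts every transcript that the annotation calls protein_coding. In BCLAF1 these took 98%, 96.5% and 97.4% of the gene's reads in DMSO and 91.5%, 91.8% and 92.9% after auxin. That coding share fell, by 1.66 in log2 odds (SE 0.25, limma adjusted p 0.0063). Outside the coding class, BCLAF1-206 went from 1.15% ± 1.1 to 5.23% ± 0.571 of the gene's reads (limma adjusted p 0.212). BCLAF1 met the exon rule through that transcript, so its coding share is not independent of the exon values above. In ACIN1 it was 74.4%, 76.2% and 80.2% in DMSO and 59.3%, 68.0% and 65.6% after auxin, a log2 odds change of -0.89 (SE 0.23, limma adjusted p 0.045). The ACIN1 call was lost without any 1 of the 6 libraries, with limma adjusted p from 0.0555 to 0.14, and on replicates 2 and 3 alone (0.0547). So 2 of 10 members had a lower coding share and 0 a higher one. Of 9173 genes tested, 13.5% were called lower and 2.59% higher.

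NKTR's coding share was 68.7%, 72.9% and 80.0% in DMSO and 41.7%, 55.8% and 64.2% after auxin. The groups did not overlap, and the change of -1.29 in log2 odds (SE 0.40) had a limma adjusted p of 0.0831. With the replicate block 3 members were lower (NKTR at 0.0108) and 1 was higher, against 17.6% and 6.12% of all genes. The higher one was SRRM2, whose coding share went from 98.4% ± 0.331 to 99.2% ± 0.31 (limma adjusted p 0.106, and 0.0196 with the block). In the other 6 members the mean coding share was at 88.9% or more in both groups, and none passed either way. At an unadjusted limma p under 0.05, 1 member was higher and 3 were lower. The share of all genes at that level was not computed.

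**Figure D2:**
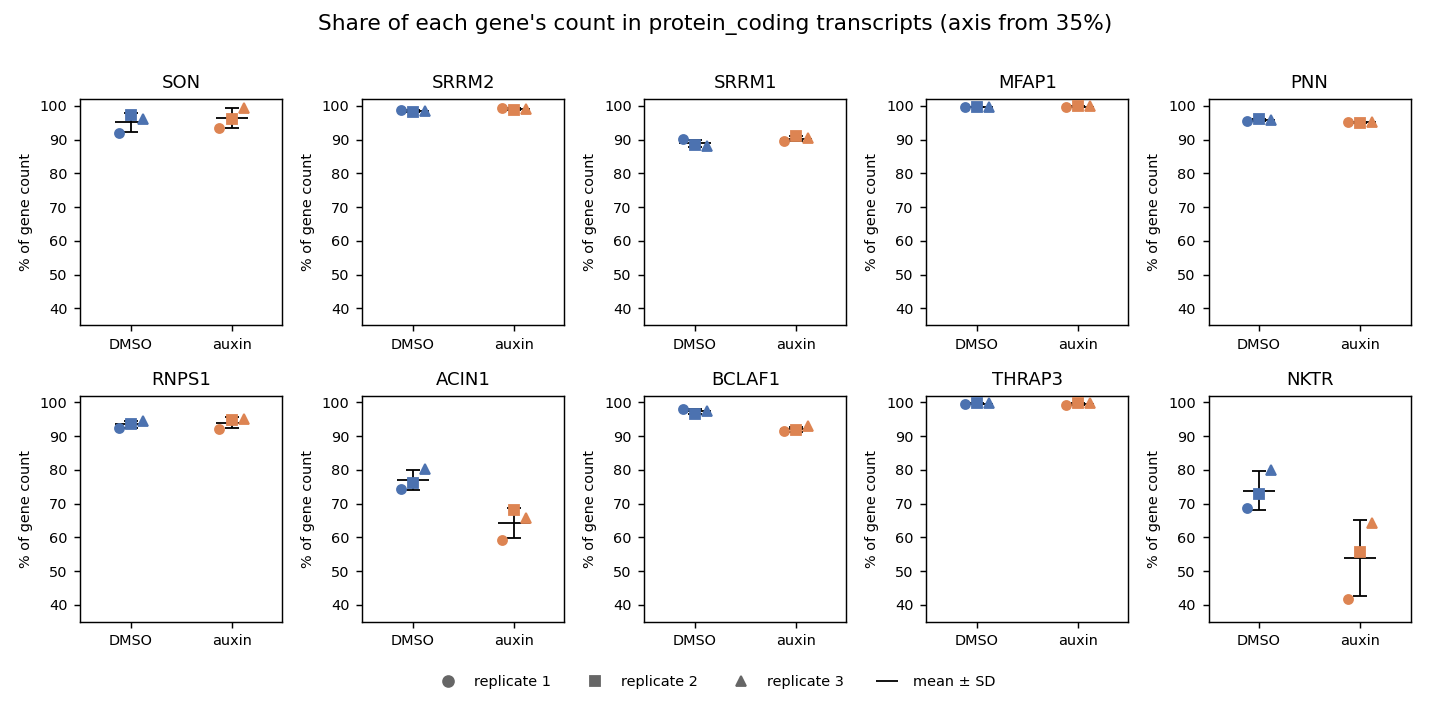
Percent of each member's estimated reads in transcripts annotated protein_coding, per library, with the mean and SD of 3 libraries; the axis starts at 35%. ACIN1, BCLAF1, NKTR and, by a small margin, PNN have all auxin libraries below all DMSO libraries, and SRRM2 has them above. NKTR spreads most, from 41.7% to 64.2% after auxin. How often the groups do not overlap in this measure over all genes was not computed.

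Classes of transcripts were also compared as shares of TPM. In ACIN1, transcripts with a retained intron went from 36.5% ± 4.56 to 45.0% ± 2.93, and in NKTR from 35.7% ± 4.23 to 44.5% ± 4.61 (SD, n = 3 each). The decay class went from 2.36% ± 0.532 to 6.03% ± 0.495 in BCLAF1. In SRRM2 the share of retained-intron transcripts went down, from 7.40%, 5.17% and 3.87% to 3.86%, 2.04% and 2.35%. The mean level of retained-intron transcripts was lower after auxin in ACIN1, NKTR and SRRM2, with overlapping ranges. It went from 14.7 ± 2.02 to 12.7 ± 3.21 TPM in ACIN1 and from 3.83 ± 1.54 to 2.3 ± 0.984 TPM in NKTR. In SRRM2 it went from 6.81 ± 4.5 to 5.44 ± 3.1 TPM. Over 34 such class comparisons, 11 reached the smallest exact permutation p of 0.1, and the lowest adjusted p was 0.309. The classes of a gene add up to its total, so these comparisons are not independent. How often classes do not overlap over all genes was not computed.

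Among single transcripts, 51 of the members' 178 could be tested for their share of the gene, and 2 rose while 2 fell. Of all 47533 transcripts tested, 8.86% were higher and 6.04% lower by limma at an adjusted p under 0.05. Under the replicate block, 9 rose and 5 fell, against 11.2% and 8.07% of all. The one call with a share of 5% or more was RNPS1-203, a coding transcript with 8 exons. Its share of RNPS1 was 25.3%, 29.2% and 30.1% in DMSO and 17.8%, 16.3% and 18% after auxin. It fell by 0.90 in log2 odds (SE 0.14, limma adjusted p 0.00999), and the call was lost without DMSO replicate 2 (0.053) and with diffSpliceDGE in edgeR (adjusted p 1). The other 3 calls were ACIN1 transcripts below 6% of the gene: the retained-intron ACIN1-207 (2.35% to 4.46%, limma adjusted p 0.035) and ACIN1-218 (1.08% to 2.06%, 0.0453), and the coding ACIN1-203 (4.60% to 2.34%, 0.036). None of these 3 was firm against leaving out a library. ACIN1-207 was lost without any library other than DMSO replicate 1 (limma adjusted p 0.0686 to 0.114), ACIN1-218 without any of the 6 (0.0599 to 0.122), and ACIN1-203 without any other than DMSO replicate 2 (0.0752 to 0.122). On replicates 2 and 3 alone all 3 were lost (0.0531, 0.0901 and 0.0865), and ACIN1-207 and ACIN1-218 also with TPM ratios (0.0685 and 0.0836). With diffSpliceDGE in edgeR none of the 3 passed (adjusted p 0.635, 0.748 and 0.515).

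Levels of 132 member transcripts were tested with edgeR, and 6 rose while 10 fell, against 8.43% and 11.2% of 83072 transcripts. SRRM2-201, the transcript with 94.7% of SRRM2 reads in DMSO, rose 2.02-fold (log2 fold change 1.02, SE 0.13, adjusted p 0.00453). SON is split among several coding transcripts, and the most abundant by reads, SON-203, rose 1.26-fold (log2 fold change 0.33, SE 0.08, edgeR adjusted p 0.039). The SON-203 call was lost without any 1 of DMSO replicates 1, 2 or 3 or auxin replicates 2 or 3, with adjusted p between 0.0634 and 0.14. PNN-201, which held 95.6% of PNN reads in DMSO, fell 1.46-fold (edgeR adjusted p 0.0106), and was at 0.0503 without DMSO replicate 2. SRRM1-201, MFAP1-201 and THRAP3-201, the main transcripts of their genes, did not pass (edgeR adjusted p 0.135, 0.645 and 0.37), and with the replicate block THRAP3-201 did (0.0124, log2 fold change 0.23).

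At the level of whole genes, expression is given as CPM, the gene's part of a library scaled to a common size with TMM factors. SRRM2 (ENSG00000167978.16, chromosome 16, 2752329 to 2772538) was the scaffold gene that rose, from 936.8, 703.7 and 694.4 CPM in DMSO to 1756, 1391 and 1465 CPM after auxin. The lowest auxin library exceeded the highest DMSO library. The rise was 1.98-fold (log2 fold change 0.98, SE 0.15, edgeR adjusted p 0.00112). In TPM, SRRM2 went from 161.6, 95.1 and 92.3 to 233.1, 162.7 and 170.3, and by limma on log2(TPM + 1) the change had an adjusted p of 0.0842.

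SON (ENSG00000159140.19, chromosome 21, 33542618 to 33577481), the other scaffold gene, was at 262.2, 249.7 and 261.9 CPM in DMSO and 277.7, 291.7 and 287.2 CPM after auxin. The groups did not overlap, but the difference was small (log2 fold change 0.15, SE 0.06, edgeR adjusted p 0.0631). With the replicate block the edgeR adjusted p was 0.00586. SRRM1 (ENSG00000133226.16, chromosome 1, 24631716 to 24673267), a splicing coactivator, was at 525.3, 504.5 and 538.6 CPM and then 567.0, 565.8 and 609.9 CPM. Its log2 fold change was 0.15 too (SE 0.06, edgeR adjusted p 0.0835, and 0.00223 with the block). The size of both small differences depended on the scale, and their sign on the correction for base composition. By limma on log2(TPM + 1) both log2 fold changes were 0.00. With upper-quartile factors in place of TMM both were 0.27 (edgeR adjusted p 0.003 for SON and 0.00438 for SRRM1). With offsets for GC content SON was at -0.16 and SRRM1 at -0.15 (edgeR adjusted p 0.0251 and 0.0416), while the median of all genes moved from 0.02 to -0.09.

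Among the genes of proteins bound to the exon junction complex, RNPS1 rose and PNN and ACIN1 fell. RNPS1 (ENSG00000205937.11, chromosome 16, 2253116 to 2268412), a subunit shared by the ASAP and PSAP complexes, was at 162.3, 139.9 and 140.7 CPM in DMSO and 205.2, 177.2 and 194.1 CPM after auxin. Its rise was 1.3-fold (log2 fold change 0.38, SE 0.09, edgeR adjusted p 0.00808), and the log2 fold change was 0.18 with GC offsets (edgeR adjusted p 0.112). PNN (ENSG00000100941.8, chromosome 14, 39175183 to 39183218), the pinin gene, whose protein defines PSAP, was at 113.3, 120.1 and 126.2 CPM and then 77.9, 83.9 and 84.9 CPM. It fell 1.46-fold without overlap (log2 fold change -0.54, SE 0.06, edgeR adjusted p 0.000394). ACIN1 (ENSG00000100813.14, chromosome 14, 23058564 to 23095614) was at 96.7, 90.0 and 94.1 CPM and then 76.4, 55.1 and 56.7 CPM. It fell 1.49-fold (log2 fold change -0.58, SE 0.13, edgeR adjusted p 0.00701), with auxin replicate 1 above the other auxin libraries.

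The related genes BCLAF1 and THRAP3 were called in opposite directions. BCLAF1 (ENSG00000029363.16, chromosome 6, 136256627 to 136289851) was at 363.9, 427.6 and 463.1 CPM in DMSO and 203.1, 259.6 and 254.3 CPM after auxin. It fell 1.75-fold (log2 fold change -0.81, SE 0.13, edgeR adjusted p 0.00143). THRAP3 (ENSG00000054118.14, chromosome 1, 36224416 to 36305357) was at 272.7, 287.8 and 311.4 CPM and then 321.8, 353.7 and 362.7 CPM. It rose 1.19-fold without overlap (log2 fold change 0.25, SE 0.08, edgeR adjusted p 0.029). That call was lost without DMSO replicate 1, DMSO replicate 2, auxin replicate 2 or auxin replicate 3 (edgeR adjusted p 0.101, 0.114, 0.0951 and 0.106), and the value was -0.04 with GC offsets.

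NKTR (ENSG00000114857.17, chromosome 3, 42600614 to 42648741) was the member with the most negative change. It was at 59.9, 55.2 and 54.5 CPM in DMSO and 32.6, 25.3 and 25.3 CPM after auxin. It fell 2.04-fold (log2 fold change -1.03, SE 0.11, edgeR adjusted p 0.000235). MFAP1 (ENSG00000140259.6, chromosome 15, 43804492 to 43824802), a protein of the spliceosome's B complex, was the one member whose groups overlapped in CPM, at 34.4, 44.4 and 48.3 and then 32.6, 40.4 and 40.8. Its log2 fold change was -0.16 (SE 0.14, edgeR adjusted p 0.381), or -0.15 with the replicate block (0.00724), since each auxin library was below the DMSO library of its number. Groups did not overlap in CPM for 9 of the 10 members and for 60.3% of all genes tested. In TPM the groups overlapped for SON, SRRM1, RNPS1, ACIN1 and THRAP3. Those of MFAP1 did not, at 22.2, 19.5 and 22 TPM in DMSO and 17.2, 16.5 and 17.7 TPM after auxin. How often groups do not overlap in TPM over all genes was not computed.

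Calls also depended on the scale. By limma on log2(TPM + 1), SRRM2, RNPS1, ACIN1, THRAP3 and NKTR did not pass (adjusted p 0.0842, 0.493, 0.175, 0.704 and 0.0563), while PNN and BCLAF1 did (0.0329 and 0.00413). RNPS1 did not pass with library sizes alone (edgeR adjusted p 0.102), nor THRAP3 with no filter on low counts (0.0567). With GC offsets MFAP1 was called lower (log2 fold change -0.49, edgeR adjusted p 0.0069). The members' longest transcripts ran from 36.4% GC in BCLAF1 and 36.5% in NKTR to 53.4% in ACIN1 and 56.2% in SRRM2.

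**Figure D3:**
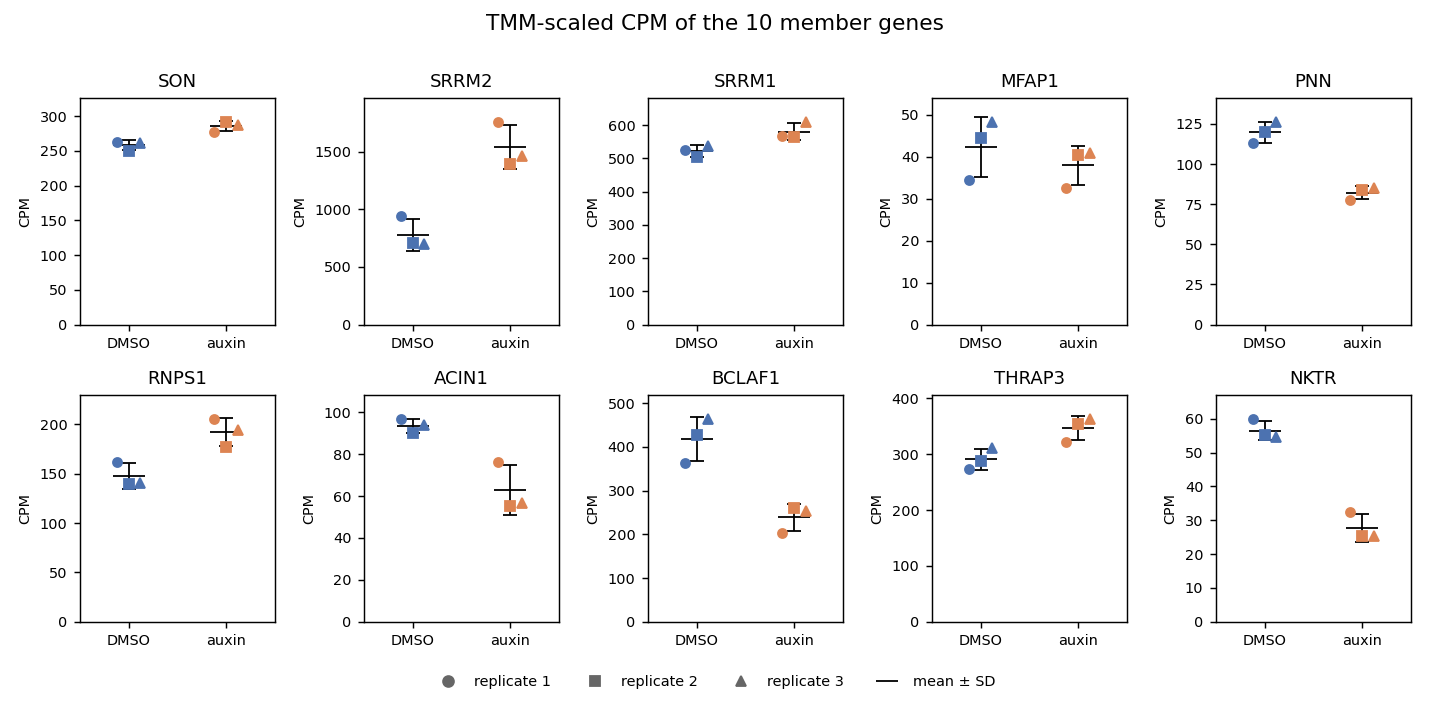
TMM-scaled CPM of the 10 members in each library, with the mean and SD of 3 libraries and axes from 0. Among the members, SRRM2 has the largest log2 fold change upward and NKTR and BCLAF1 the largest downward, without overlap, whereas MFAP1 overlaps between the groups.

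**Figure D4:**
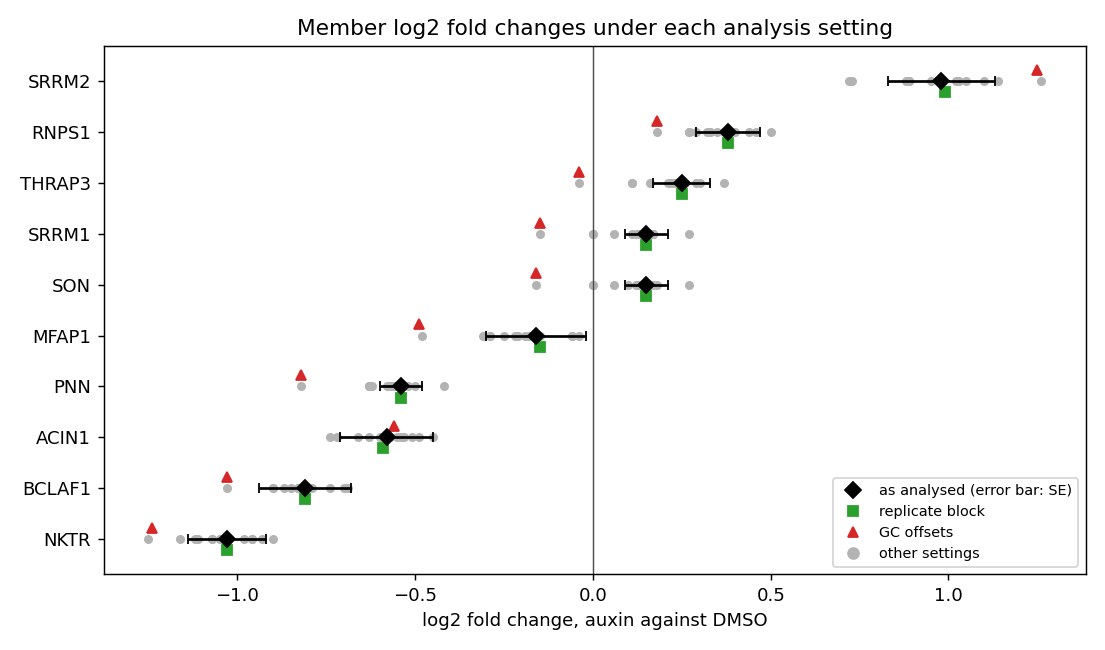
Log2 fold change of each member, auxin against DMSO, as analysed (black, with SE), with the replicate block (green), with GC offsets (red) and under the other settings (grey). The sign is kept by 7 members under all settings shown, and SON, SRRM1 and THRAP3 cross 0 with GC offsets.

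Compared per length, the order of the members' levels changed at its top. In DMSO it was SRRM1 (177.5 ± 40.4 TPM), RNPS1 (120.9 ± 38.4), SRRM2 (116.3 ± 39.2), BCLAF1 (98.3 ± 10.3), THRAP3 (73.2 ± 14), SON (56.4 ± 18.7), PNN (47.3 ± 8.83), ACIN1 (40.8 ± 8.96), MFAP1 (21.2 ± 1.5) and NKTR (10.6 ± 3.28) (SD, n = 3 each). Neighbours from SRRM1 down to ACIN1 overlapped in range over the libraries, and MFAP1 and NKTR stood apart from their neighbours. After auxin SRRM2 was at the top with 188.7 ± 38.6 TPM, not separated from SRRM1 at 175.9 ± 24. BCLAF1 came down from 98.3 to 55.0 ± 2.78 TPM, level with SON at 55.0 ± 8.87. NKTR stayed last at 5.08 ± 1.72 TPM. Within DMSO the TPM of all 10 members was highest in replicate 1, and after auxin that held for 8 of them.

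The partners of these proteins were taken from a list of 29 genes set by role. Of them 8 were called higher and 5 lower by edgeR, beside the 25.4% and 26.9% of all genes, and their median log2 fold change was 0.14. With the replicate block 18 were higher and 5 lower, beside 35.5% and 34.4% of all genes under the same block. All calls in the junction complex partners, the group of SNW1, BCLAF3 and ERH, and the B complex partners were upward: 2 of 6, 2 of 3 and 3 of 5. SAP18, which binds RNPS1 with ACIN1 or PNN, had a log2 fold change of 0.37 (edgeR adjusted p 0.041), and CASC3, a core subunit of the exon junction complex, one of 0.52 (0.000241). The core subunits EIF4A3, RBM8A, MAGOH and MAGOHB did not pass (edgeR adjusted p 0.262, 0.0555, 0.744 and 0.881). EIF4A3, RBM8A and MAGOH were called higher with the replicate block (edgeR adjusted p 0.0107, 2.2e-05 and 0.0139), each above DMSO in 3 of 3 pairs. SAP18 lost its call without any library other than auxin replicate 1 (edgeR adjusted p 0.0589 to 0.135).

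SNW1, the SKIP protein of the active spliceosome, was at 0.40 (edgeR adjusted p 0.0224) and BCLAF3, a relative of BCLAF1, at 0.32 (0.0461). Among the B complex partners of MFAP1, PRPF38A was at 0.63 (0.00439), SMU1 at 0.47 (0.0136) and ZMAT2 at 0.26 (0.0191), all log2 fold changes by edgeR. Most of these moderate rises depended on the full set of libraries. Without DMSO replicate 1 or 2 or auxin replicate 2 or 3, the edgeR adjusted p was 0.0526 to 0.0798 for SNW1 and 0.0587 to 0.0758 for ZMAT2. BCLAF3 lost its call without any library other than auxin replicate 1 (edgeR adjusted p 0.0814 to 0.156). SMU1 was at 0.0514 and 0.0526 without auxin replicate 2 or 3. With GC offsets SAP18, SNW1, BCLAF3 and SMU1 did not pass (edgeR adjusted p 0.505, 0.47, 0.361 and 0.128) and ZMAT2 was at -0.07.

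Of the relatives, SRRM3, a neuronal splicing regulator related to SRRM4, fell from 5.33 ± 0.824 to 3.56 ± 0.405 CPM (log2 fold change -0.58, SE 0.15, edgeR adjusted p 0.0132), and GC offsets turned its sign (0.47, adjusted p 0.00305). It was at 0.05 and 0.0516 without auxin replicate 2 or 3. SRRM4 was at or below 0.01 TPM in every library. PPIG, a cyclophilin with an arginine-serine tail like NKTR, had a log2 fold change of 0.14 (edgeR adjusted p 0.265, and 0.00168 with the replicate block).

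Among 12 other arginine-serine-rich genes, 4 fell and 1 rose by edgeR, against 26.9% lower and 25.4% higher of all genes tested. PRPF4B, a kinase of the spliceosome and the one gene of the 29 that passed by limma on log2(TPM + 1), rose 1.84-fold, from 90.2, 98.5 and 103.3 CPM to 161.5, 194.1 and 183.2 CPM (log2 fold change 0.88, SE 0.09, edgeR adjusted p 0.000164). LUC7L3, RBM25 and PNISR fell, with log2 fold changes of -0.40, -0.35 and -0.33 (edgeR adjusted p 0.00287, 0.00223 and 0.00572), and SREK1 by 0.27 on the log2 scale (0.0114). LUC7L3 and RBM25 proteins bind at or near the U1 snRNP, which recognises the start of introns.

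**Figure D5:**
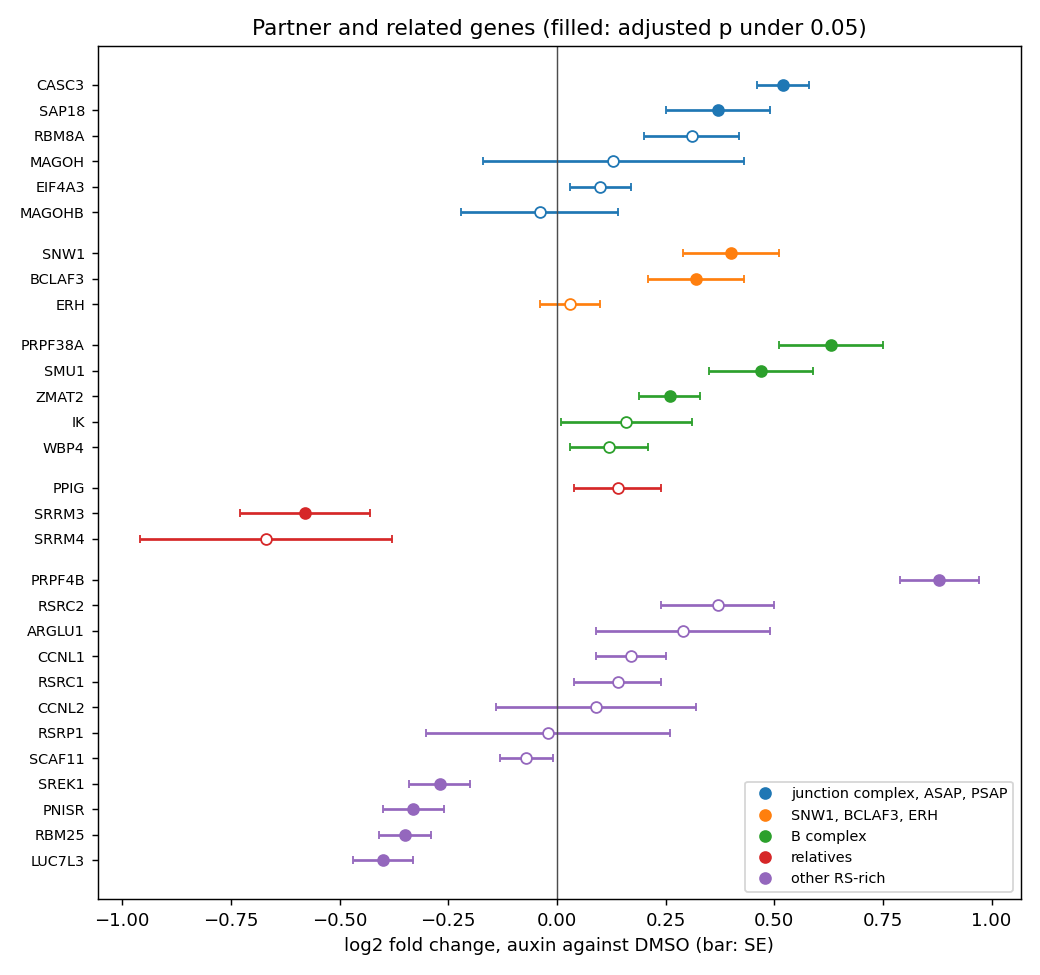
Log2 fold change with SE of the 29 partner and related genes, grouped and coloured by role; filled points have an edgeR adjusted p under 0.05. PRPF4B lies farthest to the right at 0.88, and the filled points to the left of 0 belong to SRRM3 and to 4 of the other arginine-serine-rich genes.

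Several members overlap a gene on the opposite strand. Overlaps were measured between whole gene spans, introns included, and the overlap of exons was not computed. The kit was stranded per the labels, but whether counting used the strand is not given in the sources used here, so reads in shared stretches cannot be told apart. SON overlaps DONSON over 17940 bases, and DONSON had a log2 fold change of -1.03 (edgeR adjusted p 2.55e-05), from 56.9 ± 10.1 to 25.6 ± 2.9 TPM. SON also overlaps GART over 874 bases (log2 fold change 0.50), SRRM2 overlaps ELOB over 1125 bases (-0.47) and ACIN1 overlaps C14orf119 over 850 bases (0.41). NKTR overlaps SEC22C over 467 bases (-0.13, edgeR adjusted p 0.0745) and the antisense gene AC006059.1 over 46779 bases, which was at 0.05 to 0.11 TPM. SRRM2-AS1, AL132639.3 and AC009065.4, which overlap SRRM2, PNN and RNPS1, stayed at or below 0.87 TPM in every library, and MIR6501 in SON and UBE2V2P4 in THRAP3 were listed at 0.

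Libraries held between 234037969 and 625895062 estimated reads, most in replicate 1 of either group. Members had between 5605 (NKTR) and 1135050 (SRRM2) reads in a library, so counting error was small. Of 6 epithelial markers EPCAM, KRT8, KRT18, KRT19 and CDH1 were at 36.5 TPM or more in every library, and VIL1 was at or below 0.02 TPM. Among markers of other cell types PTPRC and CD3E were at 0 and COL1A2, PECAM1 and ALB at or below 0.11 TPM, while COL1A1 was at 1.28 to 2.61 TPM in DMSO and 0.54 to 1.34 TPM after auxin, whose part in the results was not tested. In bulk RNA, fewer cells with a transcript and less of it per cell cannot be told apart.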

How the data were processed

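RNA-seq of 6 HCT116 libraries was analysed, 3 after auxin for 16 h and 3 with DMSO. Ribosomal RNA was depleted and a stranded kit was sequenced paired-end, per the labels' protocols. The submitters' processing notes name bcl2fastq 2.20, STAR, DESeq2 and the builds GRCh38 and hg38, without their roles. Per the file headers, the authors deposited, per gene and per transcript, an expected count (reads assigned by an estimate, not always whole) and a TPM, with its effective length and the posterior standard deviation. The program that made these is not given in the sources used here. Of 59526 gene IDs, 58780 matched GENCODE release 29, as did 206761 transcript IDs. The 746 gene rows with no match in that release (at most 0.00111% of a library) were left out.

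Expected counts were rounded and tested with edgeR 4.0.16 in R 4.3.3 (filterByExpr, TMM, glmQLFit, glmQLFTest, Benjamini-Hochberg over all genes). DESeq2 1.42.0 was an alternative. Transcript shares were tested with limma 3.58.1 on log2((transcript count + 0.5)/(other transcripts' count + 0.5)), for transcripts with at least 20 counts and 1% of the gene. The coding share used the same form, and exact permutation tests ran over 20 label assignments. The edgeR tests of genes and transcripts and the limma test of transcript shares, each without the block, were tried on simulated data. The coding share fit, the permutation tests, the block and the other alternatives were not. The deposited TPM was used for levels compared between genes.

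Deviations of same-numbered libraries from their group means correlated at 0.651, 0.265 and 0.276 across genes. DMSO replicate 3 correlated with auxin replicate 2 at 0.312, and DMSO replicate 2 with auxin replicate 3 at 0.18. Replicate 1 correlated with other numbers at -0.475 to -0.356. Replicate 1 was thus set apart, but the pairing of replicates 2 and 3 was not settled by these values. The numbers, which the labels give as biological replicates, were still taken to pair the samples. Nothing states that these came from separate cultures, so p-values measure the spread between these samples, which may be technical. The members and lists were chosen with earlier results of these data known. The coding share, transcript levels and early-stop exons were added after the data were seen. A gene of the partner list is not reported here. Named were all members, the partners in each role with the largest called changes, and member transcripts called with at least 5% of the gene or most abundant in it, and 3 smaller ACIN1 transcripts that were the only other calls, chosen after their values were seen.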

Additional observations from a re-analysis of the deposited data

How the results depend on the processing

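The replicate block moved members called higher from 3 to 5 and lower from 4 to 5, partner genes called higher from 8 to 18, and member transcripts with a higher or lower share from 2 and 2 to 9 and 5. It changed no other call of a member gene than SON, SRRM1 and MFAP1. Upper-quartile factors, which set the median of all genes at 0.15 instead of 0.02, gave 5 members and 15 partners higher. Replicates 2 and 3 alone gave 5 members and 14 partners higher. With limma on log2(TPM + 1), 0 members were higher and 2 lower, with 1 and 0 partners, and with log2(TPM + 0.1), 0 members were higher, with 1 and 0 partners. At an unadjusted limma p under 0.05, log2(TPM + 1) gave 1 member higher and 4 lower, and 3 and 2 partners. GC offsets, which set the median of all genes at -0.09, gave 1 member higher and 7 lower, and 4 and 7 partners. With the replicate block and GC offsets together 7 members and 13 partners were lower. GC offsets, without or with the block, reversed SON (-0.16), SRRM1 (-0.15), THRAP3 (-0.04), ZMAT2 (-0.07) and SRRM3 (0.47). DESeq2 called 3 members higher and 4 lower. The share of all genes or transcripts called was computed only for the main tests and the replicate block. The other counts here and below have no such background beside them, so they show the effect of a setting and not a trait of the members.

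For transcript shares, a 5% minimum gave 0 higher and 1 lower, no share minimum 4 and 7, the TPM ratio 0 and 4, counts divided by their mapping overdispersion 7 lower, and diffSpliceDGE in edgeR 0 and 0 (3 and 0 at an unadjusted p under 0.05). Without each library in turn, members called higher ranged from 2 to 3, lower stayed at 4, partners higher ranged from 3 to 10 and lower from 4 to 5, transcripts with a higher share from 0 to 2 and a lower share from 1 to 2. Some values not past a threshold changed sign when 1 library was left out. They ranged from -0.61 to 0.02 for the THRAP3-201 share, from -0.20 to 0.64 for the level of NKTR-202 and from -0.16 to 0.56 for that of ACIN1-206, the outlying sign coming without auxin replicate 1. Coding shares ranged in log2 odds from -0.20 to 1.51 for SON, from -0.28 to 0.93 for MFAP1, from -0.01 to 0.36 for RNPS1 and from -0.40 to 0.66 for THRAP3. The causes were not tested. Of 180 values of member fold changes under alternatives, 148 kept their direction and side of the threshold.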
